A study of Mus musculus with 6 samples.

Results

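The 10 genes described here are the 2 corticosteroid receptors of the mouse, Nr3c1 and Nr3c2, and 8 genes known as targets of the glucocorticoid receptor: Fkbp5, Tsc22d3, Zbtb16, Hif3a, Sgk1, Ddit4, Cdkn1a and Errfi1. They were taken by symbol from a table of 56748 genes, and all 10 were found and passed the filter on low values. The list was chosen from earlier results of the same comparison, in which several of these targets stood lower at day 28. Levels and differences of the 10 genes are therefore given as a description, and nothing is supported by them. Messenger RNA was sequenced from homogenized brain of mice carrying implanted MCF10DCIS cells, a human line that models ductal carcinoma in situ of the breast, placed by an intraductal route per the series title. The cells expressed CD63, a membrane protein of extracellular vesicles, joined to the light-emitting enzyme NanoLuc. Brains were collected at 28 days (3 libraries) and at 3 days (3 libraries) after implantation, and the question put to the samples was which brain transcripts differ between these times. Every library in both groups came from an implanted mouse, so the 3 day libraries are an earlier time and not a group without implants. Strain, age, sex and hour of collection are not given in the labels used here, nor is it said whether each library is a different animal. A p-value here therefore weighs a difference against the scatter of libraries, part of which may be technical.

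Glucocorticoids, corticosterone in the mouse, enter cells and bind receptors held in the cytoplasm by heat shock proteins. The bound receptor moves to the nucleus and attaches to DNA at short palindromic elements near the genes it induces. In brain, the mineralocorticoid receptor encoded by Nr3c2 binds the hormone with high affinity and is rich in hippocampal neurons, while the glucocorticoid receptor encoded by Nr3c1 is made in neurons and glia throughout the tissue and is engaged as hormone levels climb during the day or under stress.

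Levels below are normalized counts: reads per gene divided by a size factor of the library, recovered from the deposited log2 values. Libraries held 11958137 to 16059196 reads. Day 3 replicates 1 and 2 stood apart from the other 4 libraries in cerebellar neuron markers, whose 8 genes summed to 3222 to 5924 in the day 28 libraries, against 23709, 23658 and 3357 in day 3 replicates 1, 2 and 3. Day 28 replicate 3 held a smaller amount of such transcripts, with 200 normalized counts of Gabra6 and 490 of Cbln3. In day 28 replicates 1 and 2 and day 3 replicate 3, Gabra6 had 0, and Cbln3 had 2.00, 10.7 and 13.4. Liver and plasma protein transcripts were high in day 3 replicate 2 and low in day 3 replicate 1. Alb, which encodes albumin, had 1021, 1139 and 582 normalized counts in day 28 brains, against 21.1, 67649.7 and 477 in day 3 replicates 1, 2 and 3. The 8 markers of this kind summed to 11529 to 15284 in day 28 libraries, against 11343, 124234 and 11624 in day 3 replicates 1, 2 and 3, but most of the sum outside day 3 replicate 2 came from Ttr and Trf, which brain also expresses. Counts of calls and the differences of the 10 genes and of other called genes are also given without both libraries, while likeness of profile and summed marker levels are given with all 6 libraries only. Markers of brain cells were abundant in every library: those of astrocytes summed to 56952 to 59397 in day 28 brains and 52222 to 56605 in day 3 brains. Because the samples are bulk tissue, fewer cells of a type and less RNA per cell cannot be told apart.

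Promoter sequence is shown for 3 of the targets because they differ in the element that the receptor binds. The search used RefSeq windows of build GRCm38.p6, with 250 bases before and 50 bases after each listed start. The element searched was AGAACA, any 3 bases, then TGTTCT, which reads the same on both strands, and the 6-base parts AGAACA and TGTTCT were also counted alone on either strand, including within the full element. Windows of 8 of the 10 genes were used, 17 in all, and the counts given for these genes leave out Nr3c1 and Zbtb16. Only the part before the start is printed, 5′ to 3′ on the strand of the gene, with AGAACA and TGTTCT in capitals. The Sgk1 window lies at chr10:21993640-21993889 on the plus strand, the Tsc22d3 window at chrX:140600523-140600772 on the minus strand and the Fkbp5 window at chr17:28486150-28486399 on the minus strand.
Sgk1: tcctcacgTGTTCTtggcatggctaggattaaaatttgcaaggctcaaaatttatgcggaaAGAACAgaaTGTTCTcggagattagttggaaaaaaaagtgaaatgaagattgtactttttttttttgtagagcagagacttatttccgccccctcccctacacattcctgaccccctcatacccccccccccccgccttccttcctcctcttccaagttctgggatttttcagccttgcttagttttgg
Tsc22d3: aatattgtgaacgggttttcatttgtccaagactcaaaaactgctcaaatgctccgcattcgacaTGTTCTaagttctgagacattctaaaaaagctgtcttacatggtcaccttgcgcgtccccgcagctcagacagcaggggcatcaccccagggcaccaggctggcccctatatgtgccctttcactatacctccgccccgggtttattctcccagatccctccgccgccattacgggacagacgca
Fkbp5: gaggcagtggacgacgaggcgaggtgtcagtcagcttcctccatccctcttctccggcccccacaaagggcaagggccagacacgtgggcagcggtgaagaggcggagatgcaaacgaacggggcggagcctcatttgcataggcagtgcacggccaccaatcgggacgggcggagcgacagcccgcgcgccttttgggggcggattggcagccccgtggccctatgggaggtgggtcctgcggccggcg

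One of the 6 Sgk1 windows held the whole palindrome, at chr10:21993701-21993715. It begins 189 bases before the transcription start listed for that window and 965 bases before the next listed start. An exact palindrome was present in 3 of 32851 windows of all genes, a share of 0.00913%. A single 6-base part was common by comparison, in 6233 windows or 19.0%, and in 4 of the 17 windows of these genes, 23.5%. Those 4 were 3 windows of Sgk1 and 1 of Tsc22d3, where TGTTCT stood 185 bases before the start. Neither part was found in the single windows of Fkbp5, Hif3a, Ddit4 and Nr3c2 or in the 2 windows each of Cdkn1a and Errfi1. This says only that the letters are not in these short windows.

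The plot of normalized counts by library shows that both receptors were higher at day 28, 4 targets were lower and the other 4 targets overlapped between the groups. In the fit over all genes (limma with a Benjamini-Hochberg adjusted p under 0.05), 4 of the 10 genes fell and 0 rose, beside 0.124% of the 16162 tested genes called lower and 0.0681% called higher; at an unadjusted p under 0.05 the count was 5 of 10, beside 13.4% of tested genes. The 4 that fell were Fkbp5, Tsc22d3, Zbtb16 and Hif3a. Every day 28 library lay below every day 3 library for these 4 genes, as it did for 9.21% of tested genes. The 2 receptors had every day 28 library above every day 3 library, as did 9.71% of tested genes. The median log2 difference, day 28 minus day 3, was -0.67 for the 8 targets, 0.30 for the receptors and -0.0091 over all tested genes.

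**Figure D1:**
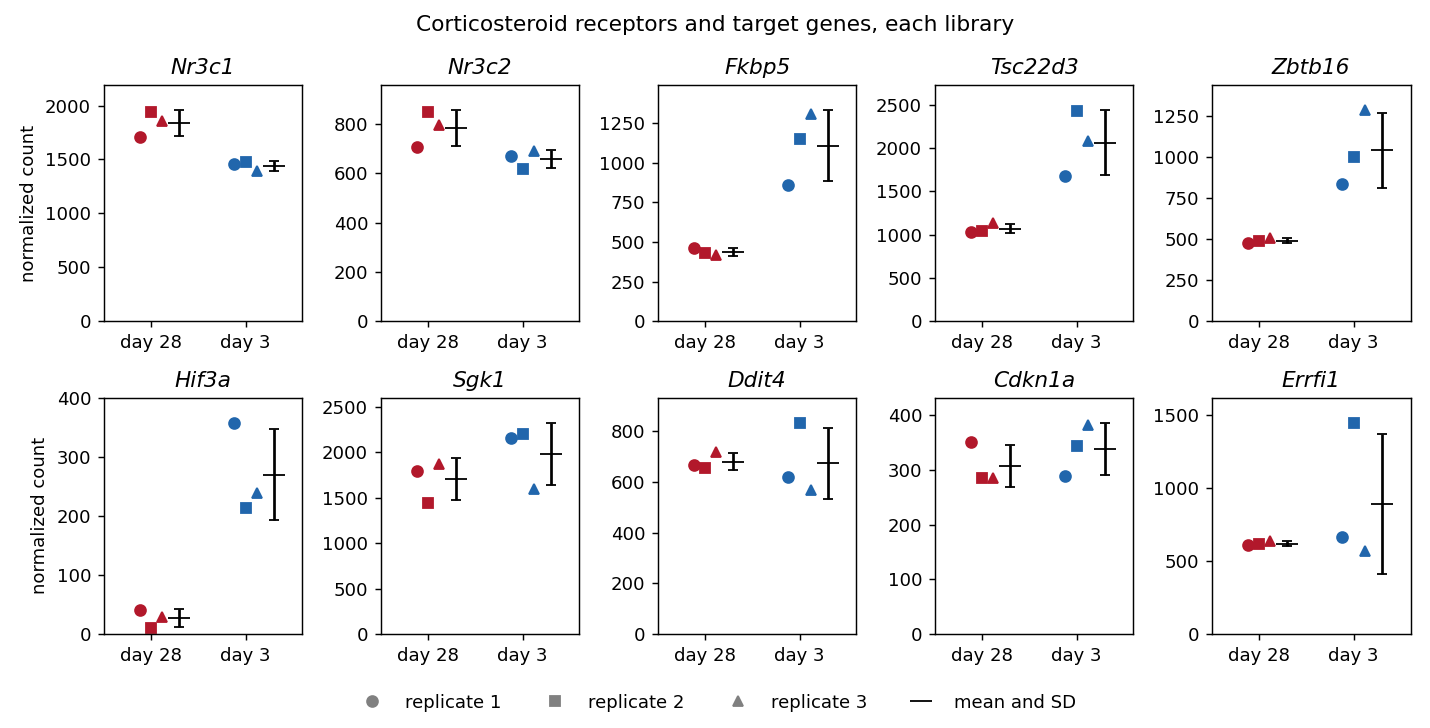
Normalized counts (vertical axes, starting at 0) of the 10 genes at day 28 and day 3 after implantation, 1 panel per gene; points are libraries, with the symbol giving the replicate number, and bars are mean and SD (n = 3 per time). Fkbp5, Tsc22d3, Zbtb16 and Hif3a lay lower in all day 28 libraries, Nr3c1 and Nr3c2 lay higher, and Errfi1 was high in day 3 replicate 2 alone.

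Nr3c1, the glucocorticoid receptor, had 1706, 1944 and 1859.6 normalized counts in day 28 brains, against 1459, 1473 and 1389.8 in day 3 brains. The day 28 libraries were all higher, with a narrow spread at both times. The means were 1837 ± 121 at day 28 and 1441 ± 44.7 at day 3 (SD, n = 3 each), a log2 difference of 0.35 (SE 0.088) that was not called in the fit over all genes. Nr3c2, the mineralocorticoid receptor, had 706.8, 849 and 799 normalized counts in day 28 brains, against 671, 618 and 690.04 in day 3 brains. Its groups did not overlap either, but the lowest day 28 library was close to the highest day 3 library. The log2 difference of Nr3c2 was 0.25 (SE 0.11), which was not called. Per kilobase of exon, Nr3c2 stood at 0.507 ± 0.014 of the Nr3c1 level at day 28 and 0.544 ± 0.046 at day 3 (SD, n = 3 each), and this ratio overlapped between the groups. In GENCODE M21 the Nr3c2 locus overlaps Gm10649 on the opposite strand, classed there as a long noncoding RNA of a bidirectional promoter. Gm10649 had 13.3 to 41.9 normalized counts at day 28 and 14.4 to 17.0 at day 3, far below Nr3c2 itself.

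Fkbp5 encodes the immunophilin FKBP51, a co-chaperone that joins the receptor complex, lowers its affinity for hormone and is itself induced by the receptor, which closes a short negative feedback loop. Its level was 461, 430.4 and 417 normalized counts in day 28 brains, against 863, 1153 and 1306 in day 3 brains. The day 28 libraries were close together, while the lowest day 3 library, replicate 1, was already well above them. The day 28 mean of 436 ± 22.7 was 39.4% of the day 3 mean of 1107 ± 225 (SD, n = 3 each), and Fkbp5 fell by 1.32 on the log2 scale (SE 0.15). In reads, 462, 482 and 440 at day 28 stood beside 942, 1121 and 1073 at day 3. In GENCODE M21 the same-strand transcript AC154912.3 overlaps Fkbp5, with at most 6.63 normalized counts at day 28 and 15.4 at day 3.

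Tsc22d3 encodes GILZ, a leucine zipper protein that mediates part of the anti-inflammatory action of glucocorticoids. It had 1034, 1040.2 and 1132 normalized counts in day 28 brains, against 1683, 2429.6 and 2082 in day 3 brains. The groups were well separated, with day 3 replicate 1 again the lowest of its group. The means were 1069 ± 54.6 at day 28 and 2065 ± 374 at day 3 (SD, n = 3 each), so that Tsc22d3 fell by 0.93 on the log2 scale (SE 0.13).

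Zbtb16 encodes PLZF, a zinc finger repressor of transcription and a well known hormone-induced gene. It had 474, 487 and 505 normalized counts in day 28 brains, against 834, 997 and 1283 in day 3 brains. The order of the day 3 libraries matched that of Fkbp5, with replicate 1 lowest and replicate 3 highest. The day 28 mean was 489 ± 15.6, against 1038 ± 227 at day 3 (SD, n = 3 each), and Zbtb16 fell by 1.06 on the log2 scale (SE 0.15).

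Hif3a encodes a member of the hypoxia-inducible factor family whose splice forms can restrain the other family members. It had 40.9, 10.7 and 28.4 normalized counts in day 28 brains, against 357, 214 and 239 in day 3 brains. Per length it was the lowest of the 10 genes at both times. Unlike the other 3 genes that fell, its highest day 3 library was replicate 1. The day 28 mean of 26.7 ± 15.2 was 9.89% of the day 3 mean of 269.9 ± 76.6 (SD, n = 3 each), and Hif3a fell by 3.44 on the log2 scale (SE 0.45). Only 41, 12 and 30 reads stood behind the day 28 values, against 390, 208 and 196 at day 3, so the day 28 level is the least precise among these genes.

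The 4 calls depended on single libraries, while the directions did not. With any 1 of the 3 day 28 libraries or day 3 replicate 2 left out, 0 of the 10 genes passed the adjusted threshold and 5 or 6 had an unadjusted p under 0.05; without day 3 replicate 1 there were 3 calls, Hif3a having an adjusted p of 0.0684, and without day 3 replicate 3 there were 4. With voom on the recovered reads 0 passed and 6 had an unadjusted p under 0.05. Without both day 3 replicates 1 and 2, which leaves 1 day 3 library assumed to vary like the day 28 ones, 0 passed and 5 had an unadjusted p under 0.05, and the log2 differences were -1.58 for Fkbp5, -0.96 for Tsc22d3, -1.39 for Zbtb16 and -3.30 for Hif3a. The part of cerebellar and liver transcripts in these differences was not tested.

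**Figure D2:**
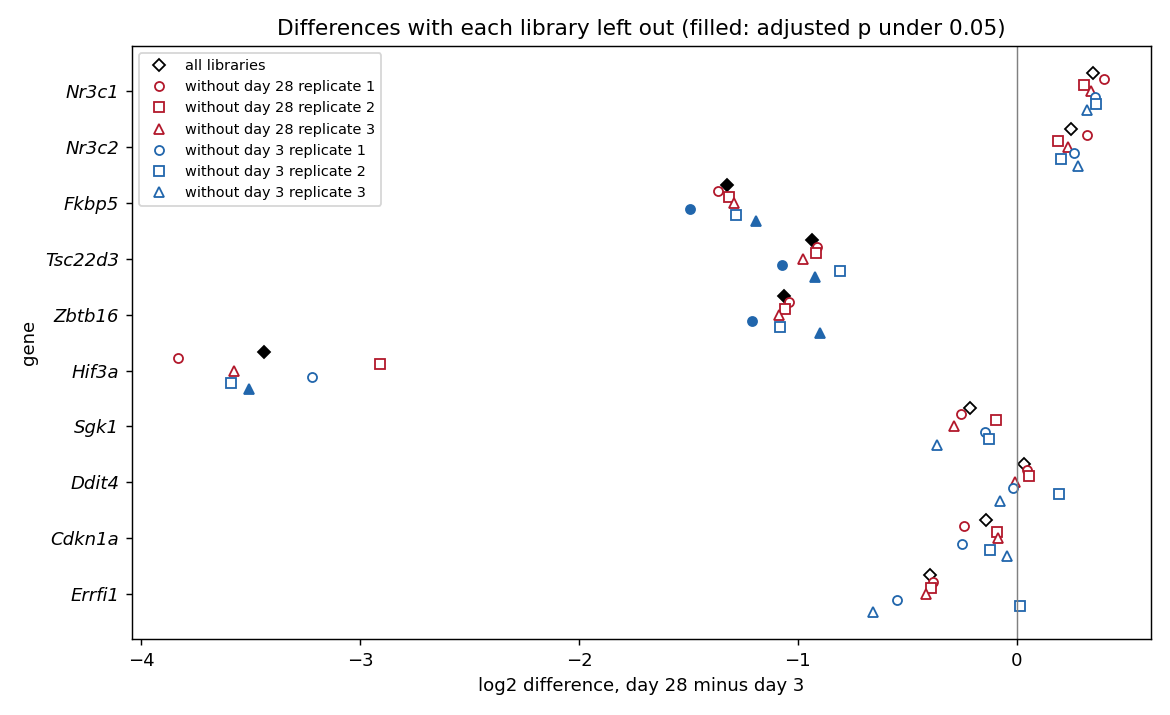
Log2 difference, day 28 minus day 3, of each gene with all libraries (diamonds) and with each library left out in turn (circles, squares and triangles for replicates 1, 2 and 3); filled symbols have an adjusted p under 0.05 in limma over all genes. Fkbp5 stayed between -1.49 and -1.19 and Hif3a between -3.83 and -2.91, while Ddit4 and Errfi1 had values on both sides of 0.

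Sgk1 encodes a serum- and glucocorticoid-induced kinase that acts on ion channels and transporters. Its palindrome is printed above. It had 1793, 1442 and 1875 normalized counts in day 28 brains, against 2152, 2198 and 1589 in day 3 brains. The groups overlapped because day 3 replicate 3 lay below 2 of the day 28 libraries. The log2 difference was -0.21 (SE 0.15), and without both day 3 replicates 1 and 2 it was 0.091.

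Ddit4 encodes REDD1, an inhibitor of mTOR complex signalling that responds to hormone, hypoxia and energy stress. It had 667, 656 and 717 normalized counts in day 28 brains, against 618, 832 and 569.6 in day 3 brains. The day 28 libraries lay inside the range of the day 3 libraries. The log2 difference was 0.033 (SE 0.15), and it ran from -0.077 to 0.20 as single libraries were left out.

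Cdkn1a encodes an inhibitor of cyclin-dependent kinases that p53 as well as glucocorticoids can induce. It had 351, 285 and 284 normalized counts in day 28 brains, against 289, 344 and 382 in day 3 brains. The groups overlapped almost wholly, and the log2 difference was -0.14 (SE 0.16).

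Errfi1 encodes MIG6, a feedback inhibitor of the EGF receptor. It had 608, 614 and 636 normalized counts in day 28 brains, against 661, 1445 and 568 in day 3 brains. A single library, day 3 replicate 2, held the high value, and that is the library rich in liver and plasma protein transcripts. The log2 difference of Errfi1 was -0.40 (SE 0.30), and 0.015 without day 3 replicate 2. Whether the liver transcripts have a part in the Errfi1 value was not tested.

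The spread within groups was compared next, with the reserve that day 3 replicates 1 and 2 stand apart in cerebellar and liver transcripts as given above. The SD of log2 values was larger at day 3 for 7 of the 8 targets, 87.5%, and for 10900 of the 16162 tested genes, 67.4%, so most genes leaned the same way. With day 3 replicate 1, 2 or 3 left out, the count of targets was 6, 7 or 6 of 8, and the share of tested genes 51.4%, 58.2% or 58.0%, with 2 libraries left at day 3. The median SD was 0.073 at day 28 and 0.297 at day 3 for the targets, and 0.167 at day 28 and 0.239 at day 3 for all tested genes. Without day 3 replicate 1 the day 3 medians were 0.207 for the targets and 0.171 for all tested genes, and without replicate 2 they were 0.298 and 0.212. Errfi1 showed the widest gap, with 0.034 at day 28 and 0.721 at day 3, which came from day 3 replicate 2 alone, and Hif3a was the exception, with 0.95 at day 28 and 0.388 at day 3. Both receptors also went against this pattern: the SD of Nr3c1 was 0.096 at day 28 and 0.045 at day 3, and that of Nr3c2 was 0.135 at day 28 and 0.083 at day 3.

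The plot of deviations by library sets the 3 sets of genes beside each other. The 4 targets that fell had mean deviations, on the log2 scale from each gene's mean over 6 libraries, of -0.65, -1.12 and -0.76 in day 28 replicates 1 to 3, against 0.73, 0.84 and 0.96 in day 3 replicates 1 to 3. The 4 targets that were not called had -0.031, -0.19 and -0.049 in day 28 brains, against -0.033, 0.43 and -0.13 in day 3 brains, and the one raised value, in day 3 replicate 2, was led by Errfi1. The receptors deviated the other way by a smaller amount, 0.023, 0.25 and 0.17 in day 28 brains, against -0.13, -0.18 and -0.14 in day 3 brains.

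**Figure D3:**
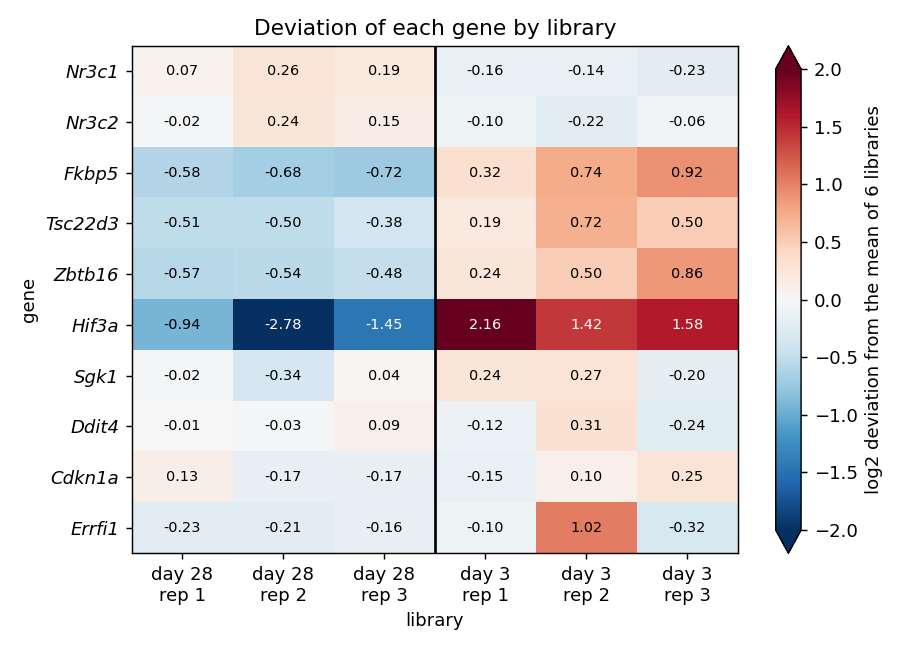
Deviation of each gene (rows) in each library (columns, day 28 left of the line and day 3 right of it) from its mean over the 6 libraries, in log2 units, with colours capped at the ends of the scale. Fkbp5, Tsc22d3, Zbtb16 and Hif3a were below 0 in every day 28 library and above 0 in every day 3 library, and Errfi1 reached 1.02 in day 3 replicate 2.

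Levels can be set between genes only per length, here as normalized counts per kilobase of all exons in GENCODE M21. At day 28 the order from high to low was Ddit4 at 388 ± 18.6, Sgk1 at 347 ± 46.9, Tsc22d3 at 246 ± 12.6, Nr3c1 at 239 ± 15.7 and Errfi1 at 173 ± 4.10 (SD, n = 3 each). Below them came Nr3c2 at 121 ± 11.2, Zbtb16 at 92.5 ± 2.95, Cdkn1a at 86.4 ± 10.9, Fkbp5 at 46.1 ± 2.39 and Hif3a at 3.98 ± 2.26. Among neighbours in that order, the libraries overlapped between Ddit4 and Sgk1, Tsc22d3 and Nr3c1, and Zbtb16 and Cdkn1a. At day 3 Tsc22d3 led at 476 ± 86.1, ahead of Sgk1 at 404 ± 69.2 and Ddit4 at 384 ± 79.5, and these 3 overlapped. Errfi1 at 249 ± 134, Zbtb16 at 196 ± 43.0 and Nr3c1 at 188 ± 5.82 followed, then Fkbp5 at 117 ± 23.8, Nr3c2 at 102 ± 5.78, Cdkn1a at 95.2 ± 13.3 and Hif3a at 40.2 ± 11.4. At that time the only neighbours whose libraries did not overlap were Nr3c1 with Fkbp5 and Cdkn1a with Hif3a. In day 3 replicate 3 alone, Tsc22d3 at 479.7 also led, followed by Ddit4 at 325, Sgk1 at 324 and Zbtb16 at 243.

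Set beside the receptors within each library, all 8 targets had a lower mean ratio at day 28, to Nr3c1 and to Nr3c2 alike. Both receptors were higher at day 28, so a gene whose own level did not differ would also have a lower ratio. The share of all genes with a lower ratio was not computed. Fkbp5 per kilobase was 0.194 ± 0.022 of Nr3c1 at day 28 and 0.626 ± 0.142 at day 3. Tsc22d3 was 1.03 ± 0.074 of Nr3c1 at day 28 and 2.54 ± 0.450 at day 3, so the 2 transcripts were about level per length in day 28 brains. Zbtb16 was 0.388 ± 0.021 at day 28 and 1.05 ± 0.262 at day 3, and Hif3a was 0.017 ± 0.011 at day 28 and 0.214 ± 0.059 at day 3. Sgk1, which differed little in its own level, was 1.46 ± 0.262 of Nr3c1 at day 28 and 2.15 ± 0.308 at day 3, and Ddit4 was 1.63 ± 0.129 at day 28 and 2.04 ± 0.375 at day 3. Cdkn1a was 0.364 ± 0.071 at day 28 and 0.509 ± 0.084 at day 3, and Errfi1 0.725 ± 0.044 at day 28 and 1.32 ± 0.682 at day 3. In day 3 replicate 3 alone the ratios to Nr3c1 were 0.763 for Fkbp5, 2.65 for Tsc22d3, 1.34 for Zbtb16, 0.197 for Hif3a and 1.79 each for Sgk1 and Ddit4. Among the 8 targets, Cdkn1a alone had ratios to Nr3c1 that overlapped between the groups. Ratios to Nr3c2 overlapped for Sgk1, Ddit4, Cdkn1a and Errfi1, and did not for Fkbp5, Tsc22d3, Zbtb16 and Hif3a. The share of all genes whose ratios overlapped was not computed. The ratio to Nr3c1 also carries the difference of Nr3c1 itself, so for Ddit4 it was lower at day 28 while the level of Ddit4 was not.

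Among 24 other genes that glucocorticoids are known to induce, 4 fell and 0 rose in the fit over all genes, beside 0.124% of tested genes called lower and 0.0681% called higher. An unadjusted p under 0.05 was found for 16, beside 13.4% of tested genes. Differences were negative for 21 of the 24, beside 51.4% of tested genes, with a median log2 difference of -0.62 against -0.0091 over all tested genes. Every day 28 library lay below every day 3 library for 14 of them and above for 2, beside 9.21% and 9.71% of tested genes. Many of the 24, Mt1, Fam107a and Pnpla2 among them, were highest in day 3 replicate 2, the library rich in liver transcripts. Plin4 and some others were highest in other libraries. The part of liver transcripts in these differences was not tested. Plin4, a coat protein of lipid droplets, had 17.0, 19.6 and 15.2 normalized counts in day 28 brains, against 208, 167 and 276 in day 3 brains. Plin4 fell by 3.55 on the log2 scale (SE 0.28, limma adjusted p = 0.0056), close to the size seen for Hif3a. Fam107a, an actin-binding protein raised by stress in brain, had 4043 ± 267 normalized counts at day 28 and 6797 ± 566 at day 3 (log2 difference -0.75, SE 0.095). Mt1, a metal-binding metallothionein, had 1539.6 ± 106 at day 28 and 3398 ± 749 at day 3 (log2 difference -1.12, SE 0.15), and it may share reads with its close relative Mt2. Pnpla2, the triglyceride lipase ATGL, had 258 ± 13.0 at day 28 and 453 ± 22.0 at day 3 (log2 difference -0.81, SE 0.12, limma adjusted p = 0.048).

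The plot of log2 differences shows that the list was not uniform. Dusp1, a phosphatase of MAP kinases that is also an immediate early gene, had 575, 1022 and 705 normalized counts in day 28 brains, against 248, 536 and 469.8 in day 3 brains. It stood on the other side, with a log2 difference of 0.91 (SE 0.30) that was not called (limma adjusted p = 0.239). Per1, a clock gene with a hormone-responsive promoter, had a log2 difference of 0.34 (SE 0.14) and was not called (limma adjusted p = 0.317). Dusp1 and Per1 were named after their values were seen. This list was also made with results of these data known, so its direction is no independent evidence. The count of 4 was 0 without day 28 replicate 1, to 1 without day 28 replicate 2, day 28 replicate 3 or day 3 replicate 2, and 7 without day 3 replicate 3; without both day 3 replicates 1 and 2 it was 0, with 14 at an unadjusted p under 0.05, and the log2 differences were -3.93 for Plin4, -0.61 for Fam107a, -0.98 for Mt1 and -0.85 for Pnpla2.

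**Figure D4:**
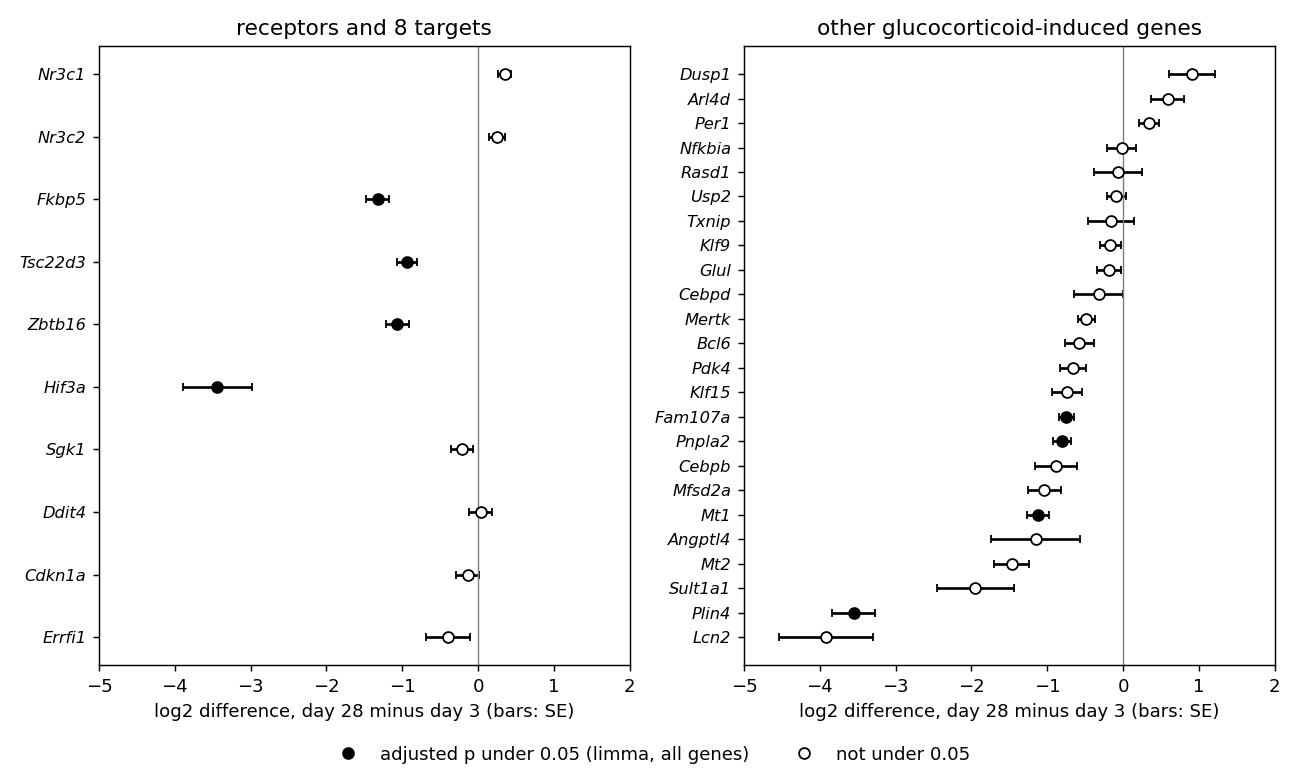
Log2 difference, day 28 minus day 3 (horizontal axes), of the receptors and 8 targets (left) and of 24 other glucocorticoid-induced genes (right); points are estimates from the fit over all genes, bars are 1 SE, and filled points have an adjusted p under 0.05. The 4 filled points on each side are all below 0, and 3 genes on the right, led by Dusp1, lie above 0.

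The supply of hormone and the machinery around the receptor were looked at with further lists. Of 13 genes for hormone supply and the hypothalamic-pituitary axis, 12 were tested and 0 were called by limma. Beside 13.4% of tested genes, 1 of the 12 had an unadjusted p under 0.05. That gene was Pcsk1, which cleaves the precursor of corticotropin, with 494 ± 11.5 normalized counts at day 28 and 359 ± 57.2 at day 3 (log2 difference 0.47, SE 0.14, limma adjusted p = 0.198). Crh, the hypothalamic releasing hormone, had 82.9, 37.5 and 64.5 normalized counts in day 28 brains, against 27.5, 31.9 and 43.8 in day 3 brains, and its groups overlapped. Hsd11b1, which regenerates active hormone inside cells, had 165, 186 and 237 normalized counts in day 28 brains, against 227, 1220.5 and 207 in day 3 brains, its high value lying in the library rich in liver transcripts. Hsd11b2, the enzyme that inactivates the hormone, had 0 reads in all 6 libraries. Hsd11b1 and Hsd11b2 were named after their values were seen.

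Of 12 chaperones and co-chaperones of the receptor, 0 were called by limma. An unadjusted p under 0.05 was found for 2, beside 13.4% of tested genes, and negative differences for 10, beside 51.4%. Fkbp4 encodes FKBP52, the counterpart of FKBP51 that favours receptor activity. It had 1364, 1496 and 1621 normalized counts in day 28 brains, against 1758, 2109.8 and 1861 in day 3 brains. The groups of Fkbp4 did not overlap, but its log2 difference of -0.35 (SE 0.11) was smaller than that of Fkbp5 and was not called (limma adjusted p = 0.201). Stip1, which links heat shock proteins, differed by -0.27 (SE 0.099, limma adjusted p = 0.285). Of 13 coregulators of nuclear receptors, 0 were called by limma and 3 had an unadjusted p under 0.05. Differences were positive for all 13, beside 48.6% of tested genes, with a median of 0.15, and 3 of 13 stands beside 13.4% of tested genes at that unadjusted p. Ncoa2, a coactivator of the receptor, had a log2 difference of 0.28 (SE 0.084, limma adjusted p = 0.211), and Med1, a Mediator subunit that contacts nuclear receptors, one of 0.35 (SE 0.13, limma adjusted p = 0.292).

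Close relatives of the 10 genes did not follow them as a set. Of 12 relatives, 0 were called by limma and 3 had an unadjusted p under 0.05, beside 13.4% of tested genes. There were 6 positive and 6 negative differences. Tsc22d4, a paralog of Tsc22d3, had a log2 difference of -0.44 (SE 0.10, limma adjusted p = 0.131), and Ddit4l, a paralog of Ddit4, one of 0.67 (SE 0.28, limma adjusted p = 0.355). Several of the targets also answer to other signals, and lists for those signals were read in the same way. Of 10 hypoxia-inducible genes, which bear on Hif3a and Ddit4, 9 were tested, and 2 had an unadjusted p under 0.05, beside 13.4% of tested genes. In the fit over all genes 1 fell and 0 rose, beside 0.124% called lower and 0.0681% called higher. That gene was Slc2a1, which carries glucose from blood into brain, with 1447 ± 34.4 normalized counts at day 28 and 2428 ± 211 at day 3 (log2 difference -0.74, SE 0.092, limma adjusted p = 0.034). Without both day 3 replicates 1 and 2 its log2 difference was -0.86 and it was not called (limma adjusted p = 0.116). Ndrg1, another hypoxia-inducible gene, had a log2 difference of -0.41 (SE 0.10, limma adjusted p = 0.134). Of 11 p53 targets, which bear on Cdkn1a, 10 were tested and 0 were called by limma. An unadjusted p under 0.05 was found for 4 of them, beside 13.4% of tested genes. Btg2, an antiproliferative p53 target that is also an immediate early gene, had a log2 difference of 1.55 (SE 0.38, limma adjusted p = 0.138), and Plk2, a kinase of the same list, one of 0.49 (SE 0.14, limma adjusted p = 0.191). Of 9 feedback genes of EGF receptor and MAP kinase signalling, which bear on Errfi1, 0 were called by limma. Beside 13.4% of tested genes, 2 of the 9 had an unadjusted p under 0.05. These were Dusp6, a phosphatase of ERK kinases, at 0.60 (SE 0.16, limma adjusted p = 0.166), and Spry2, an inhibitor of the pathway, at 0.42 (SE 0.13, limma adjusted p = 0.232).

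Likeness of profile was measured as the root mean square difference of log2 values over the 6 libraries, each gene centred on its own mean. The gene nearest to Fkbp5 among all tested genes was Smim3, a small membrane protein, at 0.147 log2 units. It had 91.8, 61.6 and 73.0 normalized counts in day 28 brains, against 157, 214 and 217 in day 3 brains. Zbtb16 came next at 0.157, followed by Gm11410 at 0.170, Mfsd2a at 0.187 and Vit at 0.189, and Tsc22d3 ranked 11 at 0.241. Mfsd2a encodes the lipid transporter of brain endothelium and is also on the list of other induced genes; it had a log2 difference of -1.04 (SE 0.21) that was not called (limma adjusted p = 0.102). Gm11410 and Vit were low, at 12.3 to 19.0 normalized counts in day 28 brains and 23.8 to 36.5 in day 3 brains. Nearest to Nr3c1 were Slc7a8, an amino acid transporter, at 0.020, Srr, which makes D-serine, at 0.048, and Abcb9, a lysosomal peptide transporter, at 0.050. Nr3c2 ranked 50 by its likeness to Nr3c1, at 0.089. Nearness in 6 libraries from the same comparison describes these libraries only.

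Of the marker lists, those of oligodendrocytes and red blood cells had a lower sum in every day 28 library, as the 4 genes that fell had lower levels. All 8 oligodendrocyte markers had negative differences, beside 51.4% of tested genes, with a median log2 difference of -0.49. Of the 8, 7 were lower in every day 28 library, beside 9.21% of tested genes, with 0 called by limma. Their summed level was 75389.6 to 93419.5 normalized counts in day 28 brains and 111280 to 132323 in day 3 brains. Of 8 astrocyte markers, 7 had negative differences, beside 51.4% of tested genes, and the median of the 8 was -0.50. Those of Slc1a3 (-0.0055) and Gja1 (-0.0076) were very small. In every day 28 library 3 of the 8 were lower and 1, Slc1a2, was higher, beside 9.21% and 9.71% of tested genes. The summed level of astrocyte markers was higher at day 28, as given above, and Slc1a2 held the largest part of it. Slc1a2 had 38878, 37086 and 38230 normalized counts in day 28 brains, against 28317, 26742 and 33537 in day 3 brains. The higher sum therefore does not describe the other astrocyte markers. All 6 red blood cell markers had negative differences, beside 51.4% of tested genes. Of the 6, 3 were lower in every day 28 library, beside 9.21%, with 0 called by limma. Their summed level was 1612 to 2147 in day 28 brains and 2250 to 5282 in day 3 brains, so the nearest libraries were close. Endothelial markers summed to 2817 to 3006 in day 28 brains and 2475 to 4067 in day 3 brains, and overlapped, as did microglial, mural, hippocampal and choroid plexus markers. The part of these cell types, cerebellar neurons included, in the levels of Fkbp5, Tsc22d3, Zbtb16 and Hif3a was not tested. Of the 4 genes, Hif3a was highest in day 3 replicate 1, Tsc22d3 in day 3 replicate 2, and Fkbp5 and Zbtb16 in day 3 replicate 3. The 8 cerebellar neuron markers summed to 23709, 23658 and 3357 in those 3 libraries.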

How the data were processed

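Polyadenylated RNA of brain tissue was sequenced, per the labels' protocols from stranded libraries, 3 at 28 days and 3 at 3 days after implantation. The authors deposited 1 table of log2 values for 56748 genes. Raised back from log2 and with 1 taken off, 100% of values in every library were whole multiples of a fixed step (tolerance 0.001 reads), so the deposited log2 values are reads divided by a size factor (0.822 to 1.12), plus 1. The build was GRCm39 per the submitters' processing notes. The aligner, counter, annotation, scaling tool and counting strand are not given in the sources used here. Symbols came from GENCODE M21 and matched 52073 identifiers, 15978 of the 16162 tested.

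Log2(normalized count + 1) was fitted with limma 3.58.1 (R 4.3.3) with an intensity trend, group as the only term and Benjamini-Hochberg adjustment over 16162 genes, those whose normalized counts averaged 10 or more. Tests were two-sided. A difference on this scale understates changes of low genes. The fit was tested on simulated data first. An exact test of 3 against 3 libraries cannot go below p = 0.1, so none was used. Between any pair of libraries in a group, chi-square divided by its degrees of freedom was 8.93 or higher, so none was the same library sequenced again. It cannot tell whether libraries came from the same animal.

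The 10 genes, the other gene lists and the markers were chosen with earlier results of these data known. Named genes were the 10, every called gene and the 2 of smallest p in each list, the 5 nearest to Fkbp5 and the 3 nearest to Nr3c1, and others where stated. Alternatives covered the pseudocount, filter, scaling, variance prior, voom on recovered reads, a replicate block, the threshold and each library left out. Leaving out both day 3 replicates 1 and 2, and the spread within groups without each day 3 library, were added after seeing the data. Figures used matplotlib 3.10.9, with pandas 2.3.3 and numpy 2.4.6 in Python 3.11.15.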

Additional observations from a re-analysis of the deposited data

How the results depend on the processing

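Of 16162 tested genes 31 were called, 4 of them among the 10 genes and 4 among the 24 other glucocorticoid-induced genes. With no filter beyond 1 read, 68 genes were called, with a robust variance prior 74, and at an adjusted p threshold of 0.1 there were 152. With no trend in the variance prior, 3 genes, 0 of the 10 (5 at an unadjusted p under 0.05) and 1 of the 24 were called. With voom on the recovered reads, limma called 0 genes (2113 at an unadjusted p under 0.05), 0 of the 10 (6) and 0 of the 24 (16). Without both day 3 replicates 1 and 2 it called 0 genes (1904), 0 of the 10 (5) and 0 of the 24 (14). With single libraries left out, calls ran from 1 to 623 over all genes, 0 to 4 of the 10 and 0 to 7 of the 24; 623 came without day 3 replicate 3, 31 without day 3 replicate 1 (16 of them shared) and 1 or 2 without any other. With a replicate block, 0 genes (2386), 0 of the 10 (5) and 0 of the 24 (16) passed. The labels do not pair the samples, and deviations of libraries with the same number correlated at 0.034, 0.131 and -0.062, so the block was not used. Scaling to the upper quartile left 3 of the 10, Zbtb16 having an adjusted p of 0.0565.

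The differences of Fkbp5, Tsc22d3, Zbtb16, Hif3a, Nr3c1, Nr3c2 and Cdkn1a kept their direction under all 15 alternatives run for them. Adjusted p ran from 0.0090 to 0.218 for Fkbp5, 0.0187 to 0.279 for Tsc22d3, 0.0120 to 0.279 for Zbtb16 and 0.0150 to 0.261 for Hif3a. With single libraries left out Ddit4 ran from -0.077 to 0.196 and Errfi1 from -0.658 to 0.015. Ddit4 was below 0 when day 28 replicate 3 (-0.0056), day 3 replicate 1 (-0.018) or day 3 replicate 3 was dropped, and Errfi1 above 0 when day 3 replicate 2 was. Without both day 3 replicates 1 and 2, Errfi1 was at 0.124, Sgk1 at 0.091 and Ddit4 at 0.255. The receptors were then at 0.400 for Nr3c1 and 0.182 for Nr3c2, and Cdkn1a was at -0.323. The causes were not tested. Depth was lowest for Hif3a at day 28, at 12 to 41 reads a library, and 3 libraries a group also limit precision.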
